A study of Mus musculus with 12 samples.

Results

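BMP2 was added to cultures of MC3T3-E1 subclone 14 that also received RSPO2, and their transcripts were compared with those of cultures given RSPO2 and no BMP2. MC3T3-E1 subclone 14 is a cloned line of mouse pre-osteoblasts, cells that lay down a collagen matrix and mineralize it in osteogenic medium. The comparison takes 3 libraries of cells treated with both recombinant proteins (BMP2+RSPO2) and 3 libraries of cells treated with RSPO2, which makes 6 of the 12 RNA sequencing libraries of the study. RSPO2 was given at 200 ng/ml and BMP2 at 100 ng/ml. The other 6 libraries are 3 of cells given vehicle (Control) and 3 of cells given BMP2. All arms were WT cells of 1 clonal line, cultured for 5 days in medium that held an ascorbic acid salt and β-glycerophosphate, and the labels call the 3 replicates of an arm independent biological replicates. A single line stands for the osteoblast here, so the values describe this clone.

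Bone morphogenetic protein 2 (BMP2) binds serine/threonine kinase receptors that phosphorylate receptor SMAD proteins, which enter the nucleus and switch on genes such as the Id genes and the inhibitory SMADs. In bone this pathway drives mesenchymal cells toward the osteoblast. R-spondin 2 (RSPO2) binds LGR receptors together with the ubiquitin ligases ZNRF3 and RNF43, which keeps Frizzled receptors at the cell surface and strengthens Wnt signalling, and Axin2 is a widely used target gene of the canonical Wnt pathway.

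Levels are the deposited FPKM values, fragment numbers divided by transcript length and by the library's mapped fragments. Depth is unknown, and 10681 to 11379 genes stood at 1 FPKM or more per library. Changes are log2 differences of log2(FPKM + 1), which understate the change of genes at low FPKM, with the SE of a limma fit to all 12 libraries, and a gene was called when its limma p, adjusted over all 11548 genes tested, was under 0.05. "Rose" and "fell" below are used for called genes. Means are given as mean ± SD with n = 3 per arm. The cells carried the transcripts of the osteoblast lineage in all 6 libraries, with Col1a1 at 3935.26 FPKM or more, Sp7 at 61.81 or more and Runx2 at 21.16 or more. Of the sets of markers of other cells, leukocyte Ptprc, epithelial Epcam, myogenic Myod1 and Myf5 were listed at 0 in all 6 libraries. Other members of these sets were above 0 and are described below. Muscle genes summed to 52.0 to 83.6 FPKM with RSPO2. With both proteins epithelial genes summed to 2.35 to 2.83 FPKM and endothelial genes to 0.02 to 5.98.

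BMP2+RSPO2 replicate 1 stood apart from the other 11 libraries. Short RNA polymerase III transcripts made up 19.1% of its summed FPKM against 0.179% to 2.3% elsewhere, its median histone gene stood at 35.9 FPKM against 0.38 to 2.66, and its median cytosolic ribosomal protein gene stood at 285 FPKM against 510 to 792. The median cell cycle gene stood higher in replicate 1 of all 4 arms. It was at 49.0 FPKM in RSPO2 replicate 1 against 10.6 and 10.2 in replicates 2 and 3, at 26.4 against 8.17 and 7.77 with both proteins, at 48.3 against 11.5 and 13.1 in Control, and at 46.4 against 19.0 and 19.3 with BMP2. Results are therefore also given from replicates 2 and 3 of every arm alone, with 2 libraries an arm.

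With BMP2 added, 11 of 20 genes of bone matrix and mineralization, 7 of 13 targets of BMP-SMAD signalling and 4 of 10 cartilage genes rose. Lower were 16 of 23 other collagens and small leucine-rich proteoglycans, 9 of 12 contractile genes, 7 of 12 BMP and activin antagonists and 5 of 11 IGF system genes. In all, 3015 of 11548 genes tested were called (26.1%), 499 higher (4.32%) and 2516 lower (21.8%), and the groups did not overlap for 2979 of these, as for 42.3% of all genes tested. The median change of all genes tested was -0.26, so the whole distribution lay toward lower values in BMP2+RSPO2. Where the libraries were brought to a common distribution the median was -0.01 and 876 genes were higher (7.59%) and 949 lower (8.22%), and with median-of-ratios scaling it was -0.02, with 893 higher (7.73%) and 956 lower (8.28%). The share of higher genes among those called thus went from 16.6% to 48% and 48.3%. Under all 3 scalings 495 genes rose (4.29%) and 885 fell (7.66%), so 4 rises and 1631 falls of the unscaled values were not kept. Of the lists above, 11 other collagens and proteoglycans and 7 contractile genes were lower under each of the other scalings. From replicates 2 and 3 alone 4314 genes were called (37.4%), 935 higher (8.1%) and 3379 lower (29.3%), with a median of all genes of -0.2, and 2696 of the 3015 calls (89.4%) were made in the same direction. Without RSPO2 replicate 2 the number called was 1847, and without RSPO2 replicate 1 it was 1947.

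**Figure D1:**
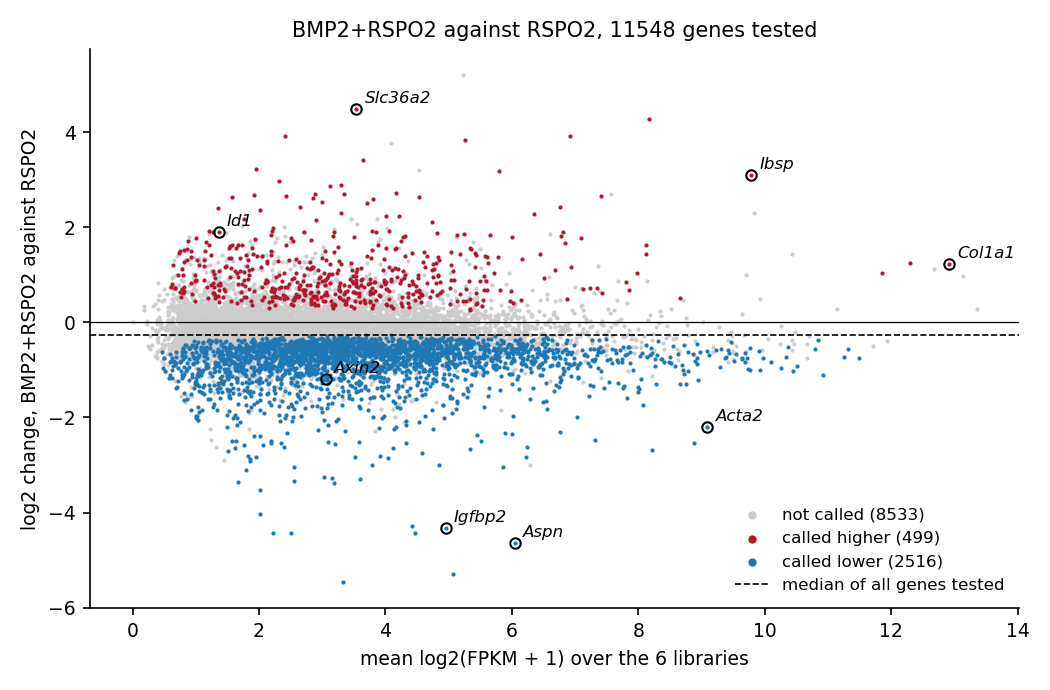
Each point is 1 of the 11548 genes tested, with the mean level over the 3 RSPO2 and the 3 BMP2+RSPO2 libraries on the x axis, as log2(FPKM + 1), and the log2 change on the y axis. The 499 genes called higher are red, the 2516 called lower are blue, the dashed line is the median change of all genes, -0.26, and 8 genes described in the text are circled.

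4 genes mark the processes in question. Ibsp encodes bone sialoprotein, a mineral-binding protein of the mature osteoblast's matrix. It stood at 232.47, 304.97 and 386.7 FPKM in RSPO2 replicates 1 to 3 and at 1972.24, 2884.97 and 2973.12 with BMP2 added. Every BMP2+RSPO2 library was above every RSPO2 library, and the mean was 8.47 times as high (log2 change 3.09, SE 0.26, adjusted p 3.55e-05), with 3.09 also from replicates 2 and 3. Id1 encodes an inhibitor of basic helix-loop-helix factors and is a direct target of BMP-SMAD signalling. It was at 0.37, 0.18 and 0.46 FPKM with RSPO2 and at 5.34, 3.2 and 3.56 with both proteins. The transcript was therefore near the bottom of the range with RSPO2 and low, but separate, with BMP2 added (1.89, SE 0.21, adjusted p 0.000205).

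Igfbp2 encodes a secreted binding protein of insulin-like growth factors. Its level was 119.81, 145.23 and 148.84 FPKM with RSPO2 and 5.97, 5.56 and 6.21 with BMP2 added, 23.3-fold lower by the means (-4.32, SE 0.15, adjusted p 3.39e-07). The 2 groups were far apart and each was narrow. Axin2, which encodes a scaffold of the β-catenin destruction complex, fell from 14.43, 9.7 and 11.05 FPKM to 4.89, 4.37 and 4.34 (-1.19, SE 0.25, adjusted p 0.00651). All 3 values with BMP2 added lay near those of the Control arm, which were 5.32, 3.72 and 3.47. The 4 marker genes kept their calls in each fit that left out 1 of the 12 libraries and under both other scalings.

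**Figure D2:**
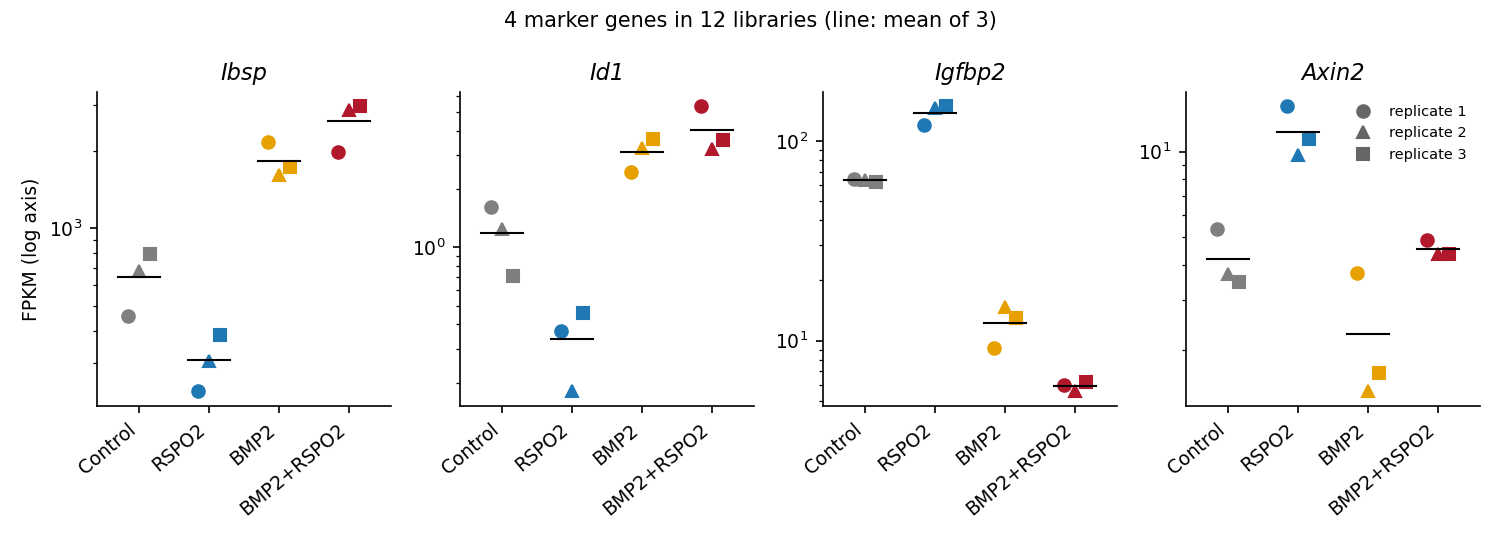
FPKM of Ibsp, Id1, Igfbp2 and Axin2 in each of the 12 libraries on a log axis, by arm, with symbols for replicates 1 to 3 and a line at the mean of 3. Ibsp and Id1 are higher, and Igfbp2 and Axin2 lower, in all 3 BMP2+RSPO2 libraries than in all 3 RSPO2 libraries.

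To show the DNA in front of strongly changed genes, the 250 bases before the annotated start of Ibsp, Alpl (tissue-nonspecific alkaline phosphatase, described below) and Igfbp2 are printed 5′ to 3′ on the gene's strand, from RefSeq on GRCm38.p6. They lie at chr5:104299037-104299286 (plus strand), chr4:137796385-137796634 (minus strand) and chr1:72824230-72824479 (plus strand). Capitals mark GGCGCC, 1 of 2 SMAD motifs searched.
Ibsp: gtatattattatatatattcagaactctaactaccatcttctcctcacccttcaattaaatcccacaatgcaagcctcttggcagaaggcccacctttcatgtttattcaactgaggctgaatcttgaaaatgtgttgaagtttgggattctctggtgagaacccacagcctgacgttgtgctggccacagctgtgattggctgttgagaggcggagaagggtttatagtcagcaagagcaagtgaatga
Alpl: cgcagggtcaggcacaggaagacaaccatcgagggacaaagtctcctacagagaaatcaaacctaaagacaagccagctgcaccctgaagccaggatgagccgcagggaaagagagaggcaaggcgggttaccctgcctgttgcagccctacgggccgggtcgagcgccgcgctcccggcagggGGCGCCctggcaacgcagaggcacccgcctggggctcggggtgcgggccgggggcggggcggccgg
Igfbp2: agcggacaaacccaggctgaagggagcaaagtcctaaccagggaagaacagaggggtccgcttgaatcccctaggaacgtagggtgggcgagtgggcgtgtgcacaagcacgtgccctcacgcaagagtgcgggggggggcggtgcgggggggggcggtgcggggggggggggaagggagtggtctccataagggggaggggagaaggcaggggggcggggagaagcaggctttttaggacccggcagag
The motifs searched on both strands were GGCGCC and GTCTAGAC (SMAD), CTTTGA (TCF/LEF) and TGTGGT (RUNX), and none of them contains another. Alpl holds GGCGCC from -66 to -61 relative to the start, and the windows of Ibsp and Igfbp2 hold none of the 4. Of 7811 promoters matched by symbol among the genes tested 18.2% hold GGCGCC, as do 20.3% of the 350 matched for genes that rose (71) and 15.4% of the 1776 matched for genes that fell (274). CTTTGA stood in 9.91% of all, 8.0% of the risen and 8.95% of the fallen, and TGTGGT in 10.1%, 7.14% and 10.1%. GTCTAGAC stood in 0.141% of all windows and in none of the risen or fallen. A match of letters is a description of these windows and no binding was measured.

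Genes that BMP-SMAD signalling is known to switch on mostly rose. Of 13 listed targets tested, 7 rose and 2 fell, beside 4.32% higher and 21.8% lower of all genes tested. Their median change was 0.92 against -0.26 for all genes tested. The other members of the Id family did not move alike. Id3 stood at 22.73, 11.41 and 20.31 FPKM with RSPO2 and at 44.6, 78.3 and 79.3 with both (1.84, SE 0.28, adjusted p 0.00123). Id2 rose from 3.97 ± 1.86 to 9.76 ± 2.19 FPKM at an adjusted p of 0.0483. That call was lost in the fits without Control replicate 3, RSPO2 replicate 2 or 3, BMP2 replicate 2 or 3, or any 1 of the BMP2+RSPO2 replicates. Id4 fell from 1.02 ± 0.216 to 0.133 ± 0.153 FPKM (-0.84, adjusted p 0.0148), a call that was lost without RSPO2 replicate 1 and when the libraries were brought to a common distribution (0.11).

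Atoh8, a basic helix-loop-helix factor induced by BMP, rose from 0.683 ± 0.319 to 4.08 ± 0.376 FPKM (1.61, adjusted p 0.000526). The inhibitory SMAD gene Smad6 was at 3.01, 3.27 and 3.26 FPKM with RSPO2 and at 5.33, 8.01 and 7.68 with both proteins. These sets did not overlap, and the change was 0.92 (SE 0.16, adjusted p 0.00285). Bambi, which encodes a decoy receptor, rose from 1.53 ± 0.355 to 4.6 ± 1.17 FPKM, and the T-box gene Tbx2 rose from 4.02 ± 1.46 to 13.8 ± 5.84. The related Smad7 was not called, with 1.47, 2.39 and 2.49 FPKM against 4.3, 3.11 and 3.21 (0.55, adjusted p 0.0508). Of the transcription factor genes in the list, Zfp423 fell from 6.17 ± 0.349 to 3.26 ± 2.18 FPKM at an adjusted p of 0.0378. It was not called under either other scaling (0.147 and 0.186), nor without Control replicate 2 or 3, BMP2 replicate 2 or 3, BMP2+RSPO2 replicate 2 or 3, or any 1 of the RSPO2 replicates.

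Among secreted proteins that bind BMPs or activins and block them, more genes fell than rose. Of 12 antagonists tested, 1 rose, 7 fell and 4 were not called, beside 4.32% higher and 21.8% lower of all genes tested. Their median was -0.94 against -0.26 for all genes tested. Grem1, encoding gremlin, was at 42.99, 43.29 and 41.55 FPKM with RSPO2 and at 7.38, 5.95 and 4.89 with BMP2 added, 7.02-fold lower (-2.64, SE 0.23, adjusted p 4.47e-05). Nog, encoding noggin, stood at 2.93, 5.31 and 5.82 FPKM with RSPO2 and was listed at 0, 0.66 and 0.81 with both (-1.94, SE 0.31, adjusted p 0.00161). In both genes the highest value with BMP2 added was below the lowest value without it.

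Fstl1, a follistatin-like glycoprotein, fell from 177 ± 22.2 to 48.9 ± 1.85 FPKM, and follistatin itself, Fst, fell from 62.7 ± 11.9 to 23.3 ± 3.05. Htra1, a secreted protease counted in the list because it binds TGF-β family ligands, fell from 98.2 ± 5.35 to 19 ± 5.78 FPKM. Chrd (chordin) and Twsg1 (twisted gastrulation) fell by 0.92 and 0.96 on the log2 scale. The member that rose was Bmper, from 2.49 ± 0.161 to 4.11 ± 0.693 FPKM at an adjusted p of 0.0175, a call lost without RSPO2 replicate 1 or 2 or BMP2+RSPO2 replicate 3. These 8 genes kept their directions under both other scalings, where 2 members were higher and 7 lower.

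Among BMP ligands, receptors and SMADs, 1 of 12 tested rose and 3 fell, shares near those of all genes tested (4.32% higher and 21.8% lower). The list's median of -0.21 was 0.04 and 0.06 under the other scalings. Gdf6, a growth and differentiation factor of the BMP family, stood at 6.66, 11.29 and 10.39 FPKM with RSPO2 and at 0.42, 0.07 and 0.1 with both (-3.11, SE 0.21, adjusted p 1.15e-05). Bmp8a rose from 0.317 ± 0.331 to 2.19 ± 0.218 FPKM (1.31, adjusted p 0.00196). Bmp2 and Bmp3 were listed at 0 in all 6 libraries. Rgma, which encodes a BMP co-receptor, fell from 1.78 ± 0.252 to 0.723 ± 0.247 FPKM, and its adjusted p of 0.00785 was 0.0679 after bringing the libraries to a common distribution. The receptor gene Acvr1 was at 16.1 ± 2.2 against 10.9 ± 1.35 FPKM (adjusted p 0.0157), and this call was lost under both other scalings, at 0.231 and 0.258, and without RSPO2 replicate 2. Bmpr1a, Bmpr2, Smad1, Smad4 and Smad5 were not called, with changes between -0.29 and 0.21.

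Of 14 genes of TGF-β ligands, receptors and latent binders, 1 rose and 5 fell, beside 4.32% higher and 21.8% lower of all genes tested. Tgfb1 rose from 12.95, 20.67 and 23.5 FPKM to 44.28, 60.91 and 58.03 (1.49, SE 0.25, adjusted p 0.0023), with the 3 BMP2+RSPO2 libraries all above. The signalling receptor gene Tgfbr2 moved in the opposite direction, from 56.96, 58.42 and 51.07 to 17.48, 18.57 and 16.62 FPKM (-1.6, SE 0.13, adjusted p 3.14e-05). Tgfb3 fell from 36.9 ± 5.16 to 16 ± 3.82 FPKM, the co-receptor gene Tgfbr3 from 4.38 ± 0.315 to 1.64 ± 0.193, and Inhba, which encodes the activin A subunit, from 48.2 ± 9.94 to 8.25 ± 5.29. Tgfb2 was not called, at 3.2, 4.24 and 4.43 against 5.43, 2.45 and 2.61 FPKM.

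Transcription factors of the osteoblast moved in both directions. Of 13 tested, 6 rose and 3 fell, beside 4.32% higher and 21.8% lower of all genes tested, and the list's median was 0.28. Runx2, the master regulator of the lineage, was at 21.56, 21.16 and 26.87 FPKM with RSPO2 and at 47.97, 40.13 and 42.6 with BMP2 added, 1.88 times as high (0.89, SE 0.15, adjusted p 0.00228). Sp7, encoding osterix, which acts downstream of Runx2, stood at 61.81, 64.84 and 96.44 FPKM with RSPO2 and at 170.06, 309.69 and 304.85 with both. This was 3.52 times as high (1.78, SE 0.28, adjusted p 0.00159), and BMP2+RSPO2 replicate 1 lay between the RSPO2 libraries and the other two. The homeobox genes Dlx3 and Dlx5 rose from 3.84 ± 0.871 to 16.1 ± 2.8 and from 17.3 ± 6.24 to 40 ± 0.095 FPKM. Zfp521, a zinc finger protein that antagonises Runx2, fell from 18.94, 16.92 and 18.6 FPKM to 5.65, 2.95 and 2.94 (-2.03, SE 0.2, adjusted p 0.000113).

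Twist1, which also restrains Runx2, fell from 36.3 ± 8.39 to 17.6 ± 0.845 FPKM at an adjusted p of 0.0149, a call lost without RSPO2 replicate 1. Atf4, Cbfb and Msx2 were not called, with changes of -0.07, 0.1 and 0.28.

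Bone matrix and mineralization genes had the highest median of the lists with at least 5 genes tested, 1.68. Of 20 tested 11 rose and 2 fell, beside 4.32% higher and 21.8% lower of all genes tested. From replicates 2 and 3 alone 15 rose and 3 fell. At a common distribution 9 rose and with median-of-ratios scaling 12 rose, and limma called no fall under either. In the fit of the 6 libraries of the 2 arms alone 5 rose and limma called no fall. Alpl, whose enzyme frees phosphate for mineral, was at 8.65, 5.45 and 8.83 FPKM with RSPO2 and at 24.66, 35.85 and 35.04 with BMP2 added. The lowest of the latter was more than any of the former, and the mean was 4.17 times as high (1.93, SE 0.19, adjusted p 0.000101). Ifitm5, which encodes a membrane protein of mineralizing osteoblasts, stood at 46.34, 63.53 and 99.32 FPKM with RSPO2 and at 331.63, 459.66 and 506.23 with both (2.66, SE 0.35, adjusted p 0.000536). Panx3, a channel protein of osteoblasts, rose from 58.1 ± 13.7 to 218 ± 26.6 FPKM, and Smpd3, a sphingomyelinase needed for mineralization, from 48.8 ± 20.5 to 252 ± 46.2. Pth1r, the receptor of parathyroid hormone, rose from 64 ± 14 to 222 ± 102 FPKM.

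The collagen I chains and osteonectin were the most abundant transcripts that rose. Col1a1 stood at 3935.26, 5076.46 and 6411.95 FPKM with RSPO2 and at 10637.1, 12136.7 and 12887.2 with both (1.23, SE 0.24, adjusted p 0.00518). Col1a2 stood at 2281.03, 2595.92 and 2913.37 against 3317.31, 6629.86 and 6741.78 FPKM (1.03, SE 0.27, adjusted p 0.0198). Sparc stood at 2873.91, 3399.69 and 3536.61 against 4501.06, 10145.5 and 10072.8 FPKM (1.24, SE 0.29, adjusted p 0.012). The arms did not overlap in any of the 3, but BMP2+RSPO2 replicate 1 was the lowest of its arm each time. All 3 calls were kept with median-of-ratios scaling and lost when the libraries were brought to a common distribution, at adjusted p of 0.564, 0.188 and 0.258 in that order, and the call of Col1a2 was also lost without RSPO2 replicate 1 or 2 and without BMP2+RSPO2 replicate 2 or 3.

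Several late genes differed between replicate 1 and the others of the BMP2+RSPO2 arm. Spp1, encoding osteopontin, was at 153.74, 764.79 and 587.21 FPKM with RSPO2 and at 214.74, 6050.61 and 6196.31 with BMP2 added. Dmp1, a matrix protein of osteocytes, was at 0.19, 9.78 and 17.37 against 21.35, 732.77 and 731.61 FPKM. Bglap2, an osteocalcin gene with near-identical copies among which reads may be split, was at 29.26, 63.87 and 14.54 against 57.88, 1380.38 and 1296.95 FPKM. For these genes replicate 1 stood far below replicates 2 and 3 with both proteins. With RSPO2 replicate 1 was also the lowest for Spp1 and Dmp1, but not for Bglap2. Spp1 and Bglap2 overlapped between the arms, whereas Dmp1 did not. Spp1 (2.29, adjusted p 0.277) and Dmp1 (5.21, adjusted p 0.0724) were not called over the 3 replicates, whereas from replicates 2 and 3 their changes were 3.19 (3.33e-05) and 5.7 (3.51e-05). Bglap2 rose by 3.92 on the log2 scale at an adjusted p of 0.0184, a call lost without RSPO2 replicate 1 or 3 or BMP2+RSPO2 replicate 2 or 3. Whether the RNA content of BMP2+RSPO2 replicate 1 plays a part was not tested.

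Phospho1, a phosphatase of matrix vesicles, was at 16.97, 71.65 and 102.08 FPKM against 355.69, 131.57 and 134.47. Its replicate 1 was the lowest with RSPO2 and the highest with both proteins. The arms did not overlap, but the gene was not called. Omd, encoding the keratan sulphate proteoglycan osteomodulin, fell from 196 ± 22.2 to 93.5 ± 44.2 FPKM (adjusted p 0.0164, and 0.0787 and 0.0815 under the other scalings), and was not called without BMP2+RSPO2 replicate 2 or 3. Mgp, an inhibitor of calcification, was not called at 308.96, 521.25 and 529.18 against 74.89, 308.11 and 349.66 FPKM, but fell by 0.68 on the log2 scale from replicates 2 and 3. Of 5 osteocyte genes tested, 1 rose, beside 4.32% of all genes tested. This was Irx5, from 20.3 ± 2.29 to 33.7 ± 10.4 FPKM at an adjusted p of 0.0401. Its arms overlapped, and the call was kept in the fits without BMP2 replicate 1 or BMP2+RSPO2 replicate 1 and lost without any 1 of the other 10 libraries. Mepe stayed at 0.1 FPKM or less in all 6 libraries.

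Of 10 cartilage genes tested, 4 rose and 1 fell, beside 4.32% higher and 21.8% lower of all genes tested. Col2a1, the main fibrillar collagen of cartilage, was at 0.69, 1.43 and 1.43 FPKM with RSPO2 and at 7.59, 16.1 and 15.94 with both (2.65, SE 0.41, adjusted p 0.00147). Col11a2, which copolymerises with it, was at 4.79, 8.64 and 17.97 against 61.57, 218.93 and 221.15 FPKM (3.83, SE 0.56, adjusted p 0.00104). Both were higher in every library with BMP2 added. Sox9, the regulator of cartilage cells, rose less, from 2.72 ± 0.396 to 5.09 ± 0.595 FPKM at an adjusted p of 0.0154, a call lost without RSPO2 replicate 2. Col10a1, of hypertrophic cartilage, was listed at 0, 0 and 0.04 FPKM and then at 0.2, 4.71 and 4.45, a call lost without any 1 of the RSPO2 replicates and without BMP2+RSPO2 replicate 2 or 3. Fmod, a collagen-binding proteoglycan of tendon and cartilage, fell from 679 ± 94 to 273 ± 11.9 FPKM. Col9a1 was listed at 0 in all 6 libraries, and Mmp13 stayed between 0.13 and 0.28 FPKM.

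Of 15 targets of canonical Wnt signalling, the pathway RSPO2 strengthens, 3 rose and 6 fell when BMP2 was added, beside 4.32% higher and 21.8% lower of all genes tested, and the median was -0.67. Beside Axin2, Nkd2, a feedback inhibitor, was at 5.92, 6.52 and 6.58 FPKM with RSPO2 and at 0.3, 0.39 and 0.23 with both, 20.7-fold lower (-2.49, SE 0.17, adjusted p 9.75e-06). Wisp2, a matricellular protein gene, was at 38.62, 32.2 and 18.18 against 1.37, 2.29 and 1.91 FPKM (-3.37, SE 0.33, adjusted p 9.95e-05). Fgf18, a bone growth factor, was at 3.89, 6.66 and 4.92 against 0, 0.98 and 0.68 FPKM (-2.02, SE 0.27, adjusted p 0.000598). In these 3 genes no library with BMP2 reached the lowest library without it.

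The 3 that rose were Tcf7, which encodes a nuclear effector of β-catenin and went from 65.3 ± 12.6 to 125 ± 9.17 FPKM, Wisp1, from 27.6 ± 3.57 to 64.1 ± 14.1, and Rnf43, the ubiquitin ligase to which RSPO2 binds, from 3.08 ± 0.465 to 4.98 ± 1.28 at an adjusted p of 0.0255, a call lost without RSPO2 replicate 2 or 3. Lef1 was not called, at 3.43, 3.22 and 3.99 against 3.34, 1.69 and 1.89 FPKM, but fell from replicates 2 and 3 (-0.72, adjusted p 0.0041). Myc and Ccnd1 were not called, with changes of -0.1 and 0.35. Under both other scalings 4 of these genes were higher and 6 lower.

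Of 27 Wnt ligands, receptors and secreted antagonists, 6 rose and 10 fell, beside 4.32% higher and 21.8% lower of all genes tested. The list's median of -0.19 was 0.05 and 0.03 under the other scalings. Sfrp2, a secreted Frizzled-like inhibitor, was at 86.23, 100.9 and 119.26 FPKM with RSPO2 and at 17.31, 14.42 and 13.82 with both (-2.67, SE 0.14, adjusted p 2.45e-06). The ligand gene Wnt7b was at 4.77, 4.95 and 5.54 against 0, 0.42 and 0.58 FPKM (-2.21, SE 0.19, adjusted p 3.96e-05). Wif1, a secreted Wnt inhibitor, moved up, from 19.59, 43.72 and 53.87 to 89.6, 246.68 and 251.67 FPKM (2.27, SE 0.57, adjusted p 0.0165), a call lost without RSPO2 replicate 1 or BMP2+RSPO2 replicate 2. Secreted inhibitors thus did not share 1 direction. The antagonist gene Dkk2 was at 3.06, 2.24 and 1.26 FPKM with RSPO2 and was listed at 0 in all 3 libraries with both, and Dkk3 fell from 83.6 ± 3.59 to 49.3 ± 6.66.

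Receptors differed too. Fzd2 fell from 22.5 ± 2.46 to 6.79 ± 0.853 FPKM and the co-receptor gene Ror1 from 4.55 ± 0.255 to 1.12 ± 0.63, whereas Fzd5 rose from 3.61 ± 1.05 to 9.87 ± 0.582. Lgr4, a receptor of R-spondins, was at 3.01, 2.33 and 2.73 FPKM with RSPO2 and at 6.29, 6.67 and 6.8 with BMP2 added (1.04, SE 0.13, adjusted p 0.000372). The cells' own Rspo2 transcript was low and fell, from 0.8, 1.6 and 1.17 FPKM to 0, 0.23 and 0.04 (adjusted p 0.0106, and 0.0812 after bringing the libraries to a common distribution). Lrp5 and Lrp6, the canonical co-receptors, were not called, with changes of -0.22 and -0.11.

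**Figure D3:**
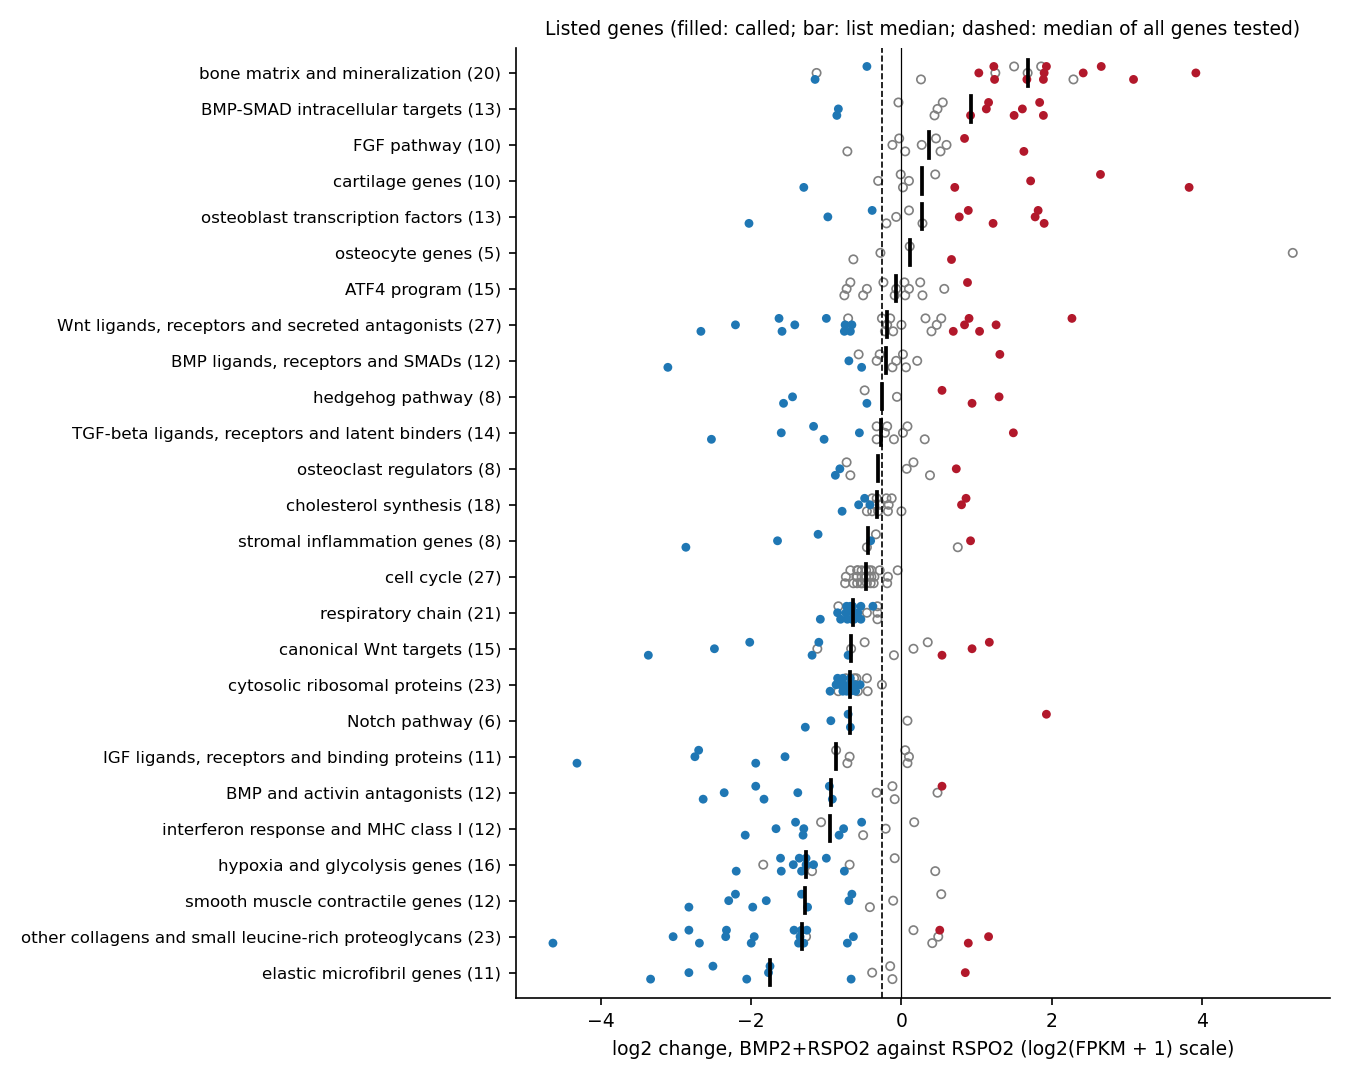
Log2 change of every gene tested in the 26 lists with at least 5 genes tested, which are sorted by their median (black bar) and have their number of genes in parentheses. Filled points are called genes, red for higher and blue for lower, and open points are not called. Bone matrix genes have the highest median, 1.68, elastic microfibril genes the lowest, -1.75, and the dashed line is the median of all genes tested, -0.26.

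Genes of elastic microfibrils had the lowest median of these lists, -1.75. Of 11 tested, 1 was higher and 7 were lower, beside 4.32% and 21.8% of all genes tested. Fbn1, which encodes fibrillin, the backbone of microfibrils, was at 16.5, 18.73 and 18.08 FPKM with RSPO2 and at 1.17, 0.75 and 0.68 with both, 20.5-fold lower (-3.34, SE 0.14, adjusted p 5.7e-07). Fbn2 was at 25.96, 27.68 and 36.13 against 1.94, 4.46 and 4.02 FPKM (-2.83, SE 0.23, adjusted p 2.97e-05). Fbln5, which links elastin to microfibrils, was at 21.67, 19.45 and 17.24 against 1.82, 3.22 and 2.87 FPKM (-2.51, SE 0.16, adjusted p 7.57e-06). All were clearly separated. Mfap4, a microfibril-associated protein gene, was at 2.39, 2.95 and 4.36 FPKM and then listed at 0 in all 3 libraries. Lox, a cross-linking enzyme that serves collagen as well as elastin, was the member that rose, from 168 ± 37.4 to 299 ± 18.8 FPKM (0.85, adjusted p 0.00718).

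Other collagens and small leucine-rich proteoglycans, the matrix of fibrous tissue, fell in 16 of 23 cases and rose in 3, with a median of -1.33. Of all genes tested 21.8% fell and 4.32% rose. Under each of the other scalings 11 of the list fell and 3 rose. Aspn, encoding asporin, was at 275.42, 344.85 and 371.85 FPKM with RSPO2 and at 26.32, 9.32 and 7.23 with both, 23.1-fold lower (-4.64, SE 0.36, adjusted p 2.13e-05). Col3a1, the fibrillar collagen of soft tissue, was at 743.36, 731.56 and 780.56 against 135.64, 105.52 and 107.53 FPKM (-2.69, SE 0.19, adjusted p 1.17e-05). Col8a1 fell from 127 ± 10.9 to 32.3 ± 5.54 FPKM and Col6a3 from 285 ± 24.2 to 118 ± 3.63. Ogn, encoding osteoglycin, fell from 166 ± 21.7 to 21.9 ± 14.4 FPKM, and periostin, Postn, from 124 ± 7.33 to 79.4 ± 8.34, the latter not called under the other scalings (adjusted p 0.172 and 0.0815). The 3 that rose were Col5a2, from 340 ± 27.3 to 488 ± 68.7 FPKM, Col15a1, from 13.5 ± 4.08 to 25.1 ± 4.03, and Thbs1, from 85.9 ± 33.2 to 183 ± 6.91. The calls of Col5a2 and Col15a1 were lost without RSPO2 replicate 1, and that of Col15a1 also without BMP2+RSPO2 replicate 2 or 3. Fewer cells of a fibroblastic kind and less of these transcripts per cell cannot be told apart in RNA of whole cultures.

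Contractile genes typical of smooth muscle and myofibroblasts showed no rise in 12 tested and 9 falls, beside 21.8% lower of all genes tested. Their median was -1.29, and 7 fell under each other scaling. Acta2, smooth muscle α-actin, was at 1004.9, 1326.79 and 1209.78 FPKM with RSPO2 and at 274.54, 240.65 and 244.4 with BMP2 added (-2.21, SE 0.13, adjusted p 5.18e-06). Myl9, a myosin light chain, was at 272.82, 250.85 and 250.81 against 71.87, 62.21 and 60.63 FPKM (-1.98, SE 0.12, adjusted p 6.14e-06). By the means they were 4.66-fold and 3.98-fold lower, and neither arm reached the other. Itga8, an integrin chain, fell from 9.33 ± 0.848 to 0.453 ± 0.171 FPKM, Tagln, encoding transgelin, from 254 ± 97.9 to 48 ± 4.93, and Lmod1, leiomodin, from 11.4 ± 0.997 to 2.64 ± 1.03. Smtn, Mylk and Des were not called.

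Of 11 IGF system genes, none rose and 5 fell by the limma test, 6 having an unadjusted p under 0.05, with a median of -0.87. Of all genes tested 4.32% rose and 21.8% fell. Beside Igfbp2, the ligand gene Igf1 was at 8.56, 5.76 and 4.95 FPKM with RSPO2 and at 0.21, 0.08 and 0.07 with both (-2.7, SE 0.24, adjusted p 5.27e-05). Igf2 was at 3.17, 6.15 and 6.19 against 0.42, 0.7 and 0.58 FPKM (-1.94, SE 0.27, adjusted p 0.000711). Igfbp4 fell from 65.1 ± 28.9 to 8.22 ± 0.658 FPKM and Igfbp7 from 84.1 ± 9.93 to 28 ± 2.35. Both ligand genes and the binding protein genes Igfbp2, Igfbp4 and Igfbp7 were thus lower. The other 6 of the 11 were not called, the receptor genes Igf1r and Igf2r among them, and 3 of the 11 had a change above 0. The adaptor genes Irs1 and Irs2 were high in BMP2+RSPO2 replicate 1 and low in the other two, and fell in the fit of replicates 2 and 3, by 1.33 and 1.3 on the log2 scale.

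Adipocyte genes were near 0 in both arms: Pparg reached at most 0.02 FPKM, and 4 of 12 genes in the table were listed at 0 in all 6 libraries. Of 3 tested, 2 fell, beside 21.8% of all genes tested. These were Apod, a lipocalin gene that other stromal cells express too, from 12.9 ± 2.72 to 0.217 ± 0.309 FPKM (-3.53, adjusted p 5.69e-05), and Cebpa, from 2.7 ± 0.193 to 1.07 ± 0.261.

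Other signalling pathways showed smaller groups of changes, to be read beside the 4.32% higher and 21.8% lower of all genes tested. In the FGF pathway 2 of 10 rose and none fell, and these were the receptor gene Fgfr3, from 2.08 ± 0.276 to 8.98 ± 4.14 FPKM (1.63, adjusted p 0.00154), and the feedback inhibitor gene Spry2, from 2.37 ± 0.929 to 4.87 ± 0.664, the latter lost without RSPO2 replicate 1 or BMP2+RSPO2 replicate 2 or 3. In the Notch pathway 1 of 6 rose and 4 fell. Hes1, a repressor that Notch and other pathways induce, was at 1.1, 1.42 and 1.64 FPKM with RSPO2 and at 6.85, 7.56 and 9.98 with both (1.93, SE 0.21, adjusted p 0.000175). The receptor gene Notch1 fell from 3.45 ± 1.04 to 1.31 ± 0.392 FPKM, the ligand gene Jag1 from 3.94 ± 0.42 to 2.05 ± 0.499, and Lfng, which modifies Notch, from 7.62 ± 1.18 to 4.33 ± 0.24. The target gene and the receptor and ligand genes therefore moved in opposite directions.

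In the hedgehog pathway 3 of 8 rose and 3 fell, beside the same shares of all genes tested, 4.32% and 21.8%. Ptch1 and Gli1, both target genes of the pathway, rose: Ptch1 from 5.47, 4.44 and 5.6 FPKM to 18.64, 13.1 and 11.65 (1.3, SE 0.17, adjusted p 0.000537), and Gli1 from 0.8 ± 0.303 to 2.41 ± 0.144. The co-receptor genes Gas1 and Cdon fell, Gas1 from 15.6 ± 2 to 5.06 ± 0.345 FPKM and Cdon from 23.3 ± 2.3 to 7.25 ± 1.54. Shh was listed at 0 in all 6 libraries.

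Among 8 osteoclast regulators 1 rose and 2 fell, beside 4.32% and 21.8% of all genes tested. Tnfrsf11b, encoding osteoprotegerin, the decoy receptor that restrains osteoclasts, was at 95.08, 135.61 and 152.18 FPKM with RSPO2 and at 189.5, 218.09 and 219.9 with both (0.73, SE 0.18, adjusted p 0.015), while Tnfsf11, encoding its ligand RANKL, was listed at 0 throughout. Ephb4 fell from 11 ± 0.405 to 5.9 ± 1.73 FPKM, and Ccl2 from 2.1 ± 0.713 to 0.673 ± 0.28, the latter lost without RSPO2 replicate 1 or 2 or BMP2+RSPO2 replicate 2 and under both other scalings. Csf1 was not called (0.07, adjusted p 0.894).

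Of 8 stromal inflammation genes 1 rose and 4 fell, beside 4.32% higher and 21.8% lower of all genes tested. Among those that fell were Il1rl1, the receptor of interleukin 33, from 9.21 ± 3.54 to 0.37 ± 0.325 FPKM, and the adhesion gene Vcam1, from 8.2 ± 1.29 to 1.97 ± 0.773. Of 12 genes of the interferon response and MHC class I, none rose and 8 fell, 6 under each of the other scalings, with a median of -0.95. Psmb8, an immunoproteasome subunit, was at 14.32, 9.82 and 9.13 FPKM against 0.84, 2.05 and 2.92 (-2.08, SE 0.25, adjusted p 0.000394), and the transcription factor gene Irf1 at 13.16, 13.9 and 11.36 against 3.59, 4.66 and 4.3 (-1.41, SE 0.18, adjusted p 0.000457). B2m, the light chain of MHC class I, was not called (0.17, adjusted p 0.469).

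For genes of general metabolism the call depended on the scaling or on single libraries. Their counts stand beside 4.32% higher and 21.8% lower of all genes tested. Of 23 cytosolic ribosomal protein genes 14 fell and none rose, with a median of -0.68, and limma called none under either other scaling, where 4 had an unadjusted p under 0.05 each time. Rpl19, for example, was at 842.33, 915.02 and 819.35 FPKM against 372.55, 568.2 and 652.64 (-0.73, adjusted p 0.0159, and 0.117 and 0.12 under the other scalings), and was not called without RSPO2 replicate 2. Of 21 respiratory chain genes 15 fell, 3 after bringing the libraries to a common distribution and 1 with median-of-ratios scaling. Sdhb, the succinate dehydrogenase subunit that was kept under both, fell from 60.7 ± 9.67 to 28.5 ± 6.46 FPKM. The most abundant of the transcripts that fell, the predicted genes Gm27597 and Gm10073 and the ribosomal Rpl23a, were at 3720 ± 106, 3110 ± 296 and 3140 ± 289 FPKM with RSPO2 and at 2240 ± 495, 2130 ± 487 and 1970 ± 593 with both, and none kept its call under both other scalings. Gm10073 and Rpl23a also lost their calls in 9 and 8 of the 12 fits that left out 1 library.

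Of 16 hypoxia and glycolysis genes 11 fell, with a median of -1.27, but 5 fell under each other scaling and 3 from replicates 2 and 3. Ldha, lactate dehydrogenase, shows the pattern, with 682.36, 229.67 and 437.52 FPKM in the RSPO2 libraries and 109.39, 193.42 and 189.27 with both. RSPO2 replicate 2 was the lowest of its arm, near the BMP2+RSPO2 libraries, and the call of Ldha (adjusted p 0.0264) was lost without RSPO2 replicate 1 or 3, without BMP2+RSPO2 replicate 1 and under both other scalings. Pfkp, a phosphofructokinase, was steadier at 8.47, 6.86 and 8.22 against 1.93, 3.01 and 3.18 FPKM (-1.27, SE 0.15, adjusted p 0.000331). Of 15 genes of the ATF4 program 1 was called, Psat1, whose call was lost in 10 of the 12 fits that left out 1 library. Of 18 cholesterol synthesis genes 2 rose and 4 fell, beside 4.32% higher and 21.8% lower of all genes tested. Under each other scaling 2 of them rose and 1 fell. None of 27 cell cycle genes was called by limma, and none had an unadjusted p under 0.05, but 8 fell from replicates 2 and 3. Mki67, for instance, was at 60.34, 10.8 and 13.22 against 59.2, 10.06 and 9.34 FPKM, where the spread between replicates exceeded that between arms.

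With predicted genes left out, the 12 largest rises among called genes whose arms did not overlap held further bone and transport genes. Slc36a2, a proton-coupled amino acid transporter, was at 0.8, 1.23 and 2.69 FPKM with RSPO2 and at 36.27, 69.05 and 62.36 with both (4.48, SE 0.34, adjusted p 1.79e-05). Cd200, an immunoregulatory surface glycoprotein, was at 0.08, 0.58 and 0.5 against 12.82, 25.74 and 23.06 FPKM (3.92, SE 0.29, adjusted p 1.68e-05). Slc8a3, a sodium/calcium exchanger, was at 1.52, 2.09 and 6.11 against 34.88, 43.84 and 40.79 FPKM (3.42, SE 0.37, adjusted p 0.000188). These transcripts were scarce with RSPO2 and 12.3 to 53.1 times as high by the means with BMP2 added.

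Prex1, which activates Rac GTPases, was at 0.15, 0.22 and 0.44 FPKM against 7.55, 13.1 and 12.49. Sgms2, a sphingomyelin synthase, rose from 18.2 ± 6.2 to 168 ± 26.1 FPKM, Fetub, a fetuin family gene, from 0.817 ± 0.445 to 12.9 ± 1.25, Prss35, a serine protease, from 6.08 ± 1.66 to 45.2 ± 6.15, and the fibrillar collagen gene Col24a1 from 3.06 ± 0.951 to 25.1 ± 4.02. Cdo1, cysteine dioxygenase, and Spns2, a transporter of sphingosine-1-phosphate, reached 28.3 ± 13.3 and 28.2 ± 18.5 FPKM, and their BMP2+RSPO2 replicate 1 was the lowest of the arm, at 13.13 and 7.08. Ibsp and Col11a2 complete the 12.

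Chosen in the same way, the largest fall was Tnnc2, troponin C of fast skeletal muscle, at 83.09, 51.71 and 65.44 FPKM with RSPO2 and at 0, 0.96 and 0.74 with both (-5.47, SE 0.3, adjusted p 3.68e-06). Of the other 10 muscle genes listed, 7 were listed at 0 in all 6 libraries and the other three reached 0.41 FPKM at most, so Tnnc2 made up nearly all of the list's summed level of 52.0 to 83.6 FPKM with RSPO2 and of 0 to 1.06 with both. Gfra2, a receptor of neurturin, was at 27.6, 23.7 and 24.65 against 0.22, 0.16 and 0.31 FPKM (-4.42, SE 0.21, adjusted p 1.63e-06). Enpp2, autotaxin, which makes lysophosphatidic acid, was at 117.22, 94.51 and 73.94 against 4.92, 3.53 and 3.34 FPKM (-4.28, SE 0.38, adjusted p 5.55e-05). The means of these 3 genes were 24.2-fold to 118-fold lower with BMP2 added.

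Itgbl1, an integrin-beta-like secreted protein, was at 10.47, 8.63 and 8.52 FPKM with RSPO2 and was listed at 0 in all 3 libraries with both. Gas2, an actin-associated protein gene, fell from 27.1 ± 4.2 to 1.95 ± 0.818 FPKM, and Igsf10, an immunoglobulin superfamily gene, from 24.2 ± 0.962 to 1.76 ± 0.99. The other members of the 12, Aspn, Igfbp2, Apod, Wisp2, Fbn1 and Gdf6, were described with their groups. All 24 of these genes were called in the same direction from replicates 2 and 3 and under both other scalings.

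**Figure D4:**
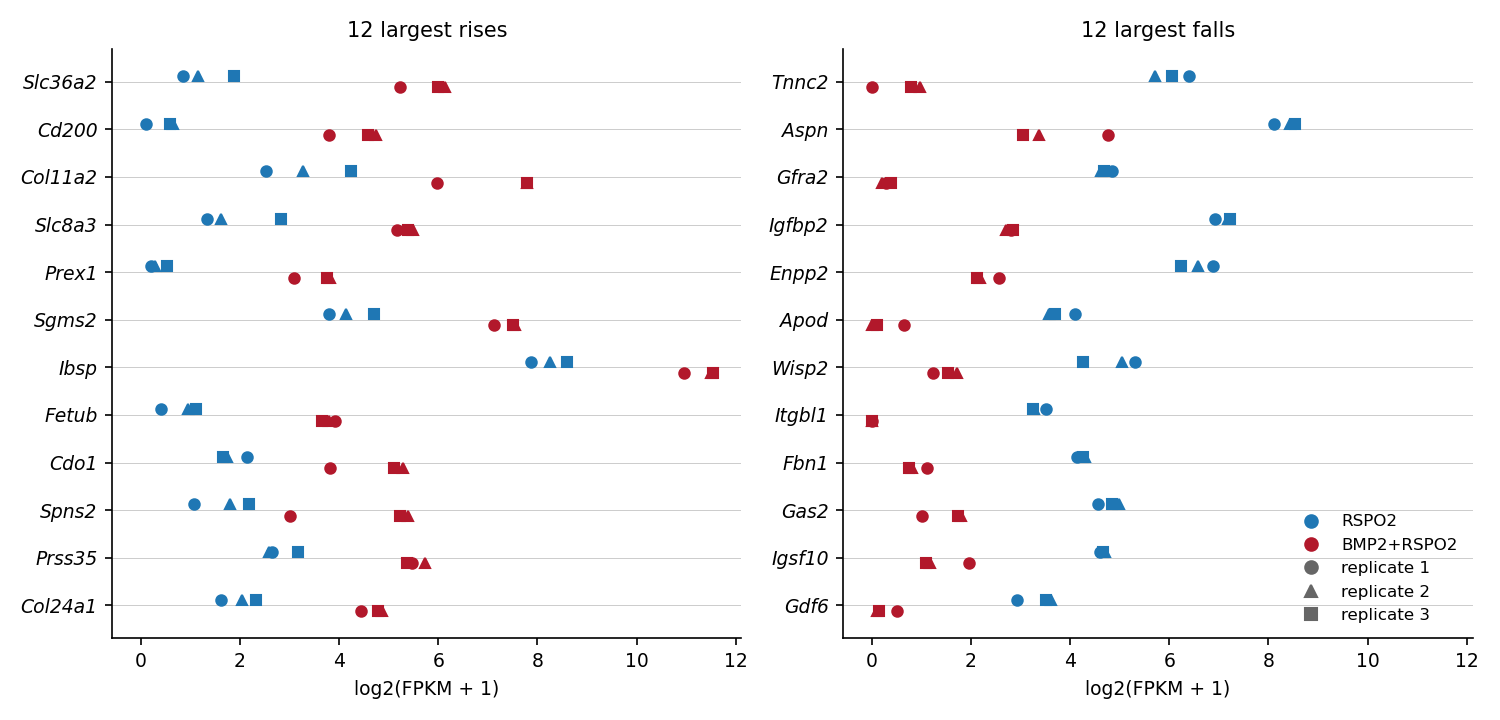
Level of the 12 largest rises and the 12 largest falls in each of the 6 libraries, as log2(FPKM + 1), blue for RSPO2 and red for BMP2+RSPO2, with symbols for replicates 1 to 3. The 24 genes were chosen among called genes whose arms do not overlap, with predicted genes left out, and Itgbl1 is at 0 in all 3 BMP2+RSPO2 libraries.

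Of the lists for other cells, 2 held 1 abundant gene each, Tnnc2 among the muscle genes and Ctsk among the osteoclast genes. Of 7 leukocyte and macrophage genes measured, 3 were listed at 0 in all 6 libraries and none of 2 tested was called by limma (none at an unadjusted p under 0.05), although Cd68 rose from replicates 2 and 3, where it went from 1.04 and 1.03 to 4 FPKM in both. Of 6 osteoclast genes, which summed to 173 to 239 FPKM with RSPO2 and to 116 to 162 with both, 3 were listed at 0 in all 6, and Ctsk, which osteoblastic cells also express, was at 207 ± 33.2 and 144 ± 24.7 FPKM (adjusted p 0.0938). Endothelial genes summed to at most 0.09 FPKM with RSPO2 and to 0.02 to 5.98 with both, the highest in BMP2+RSPO2 replicate 1, where Cdh5 was at 3.89 and Pecam1 at 1.38. Epithelial genes summed to 0.29 to 0.49 FPKM with RSPO2 and to 2.35 to 2.83 with both. No endothelial or epithelial gene passed the filter on low values, and their part in the other results was not tested.

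The same addition of BMP2 to cultures without RSPO2, BMP2 against Control, was measured in the other 6 libraries and shares no sample with the comparison above. Both were taken from 1 limma fit with a common estimate of each gene's spread, so their calls are not independent. For BMP2 against Control 175 genes were called (1.52%), 59 higher (0.511%) and 116 lower, with a median change of all genes of -0.06. Of these, 54 were called higher and 115 lower in both, which makes 169 genes, 96.6% of those called for BMP2 against Control and 5.61% of those called for BMP2+RSPO2 against RSPO2. From replicates 2 and 3 alone 963 genes were called for BMP2 against Control (8.34%), 433 higher (3.75%) and 530 lower (4.59%). Leaving out Control replicates 1, 2 and 3 in turn left 65, 87 and 93 calls, leaving out BMP2 replicates 2 and 3 left 75 and 66, and 403 were made in the absence of BMP2+RSPO2 replicate 1, which enters only the estimate of the spread. Alpl, for example, changed by 1.1 without RSPO2 (adjusted p 0.018) and by 1.93 with it, Grem1 by -1.99 and -2.64, and Gfra2 by -3.22 and -4.42. That a gene is called in one comparison and not in the other does not show that the effects differ, and the difference itself was tested as the interaction.

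The interaction, the log2 effect of BMP2 with RSPO2 minus that without, was called for 34 genes (0.294%), 1 higher (0.00866%) and 33 lower (0.286%), and 1504 had an unadjusted p under 0.05. The median interaction of all genes was -0.21. All 34 were also called in BMP2+RSPO2 against RSPO2 in the same direction, and 15 in BMP2 against Control. The interaction is computed from these 2 effects in the same libraries, so this overlap is partly built in and is no separate evidence. Igfbp2 went from 64.48, 63.43 and 62.24 FPKM in Control to 9.16, 14.72 and 13 with BMP2, a change of -2.3, and the interaction was -2.02 (SE 0.22, adjusted p 0.0165). Prex1 was the gene with a higher effect, with 0.41, 0.88 and 1.06 FPKM in Control and 1.91, 1.77 and 1.58 with BMP2 (interaction 2.57, SE 0.3, adjusted p 0.0165). Wisp2 was at 22.01, 14.97 and 7.99 FPKM in Control and 11.34, 12.44 and 11.82 with BMP2, so the arms overlapped there, and its interaction was -3.16 (SE 0.47, adjusted p 0.0308). Acta2 was at 1190 ± 89.2 FPKM in Control and 599 ± 20.5 with BMP2, and its interaction was -1.22 (SE 0.18, adjusted p 0.0308).

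These interaction calls were few and depended on single libraries. No gene was called without Control replicate 2, Control replicate 3, BMP2 replicate 2 or BMP2 replicate 3, where 1021 to 1216 genes had an unadjusted p under 0.05 in limma, and without RSPO2 replicate 2 the 1 gene called was none of the 34. Leaving out RSPO2 replicates 1 and 3 left 13 and 10 calls, and leaving out BMP2+RSPO2 replicates 2 and 3 left 16 and 5. After bringing the libraries to a common distribution 10 of the 34 were kept, Igfbp2, Prex1, Wisp2 and Acta2 among them, and with median-of-ratios scaling 4 were kept, Prex1, Myl9, Rgs10 and Fam180a. Without BMP2+RSPO2 replicate 1 all 34 were kept and 187 genes were called, and from replicates 2 and 3 alone 1109 genes were called (9.6%), the 34 among them, 291 higher (2.52%) and 818 lower (7.08%).

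**Figure D5:**
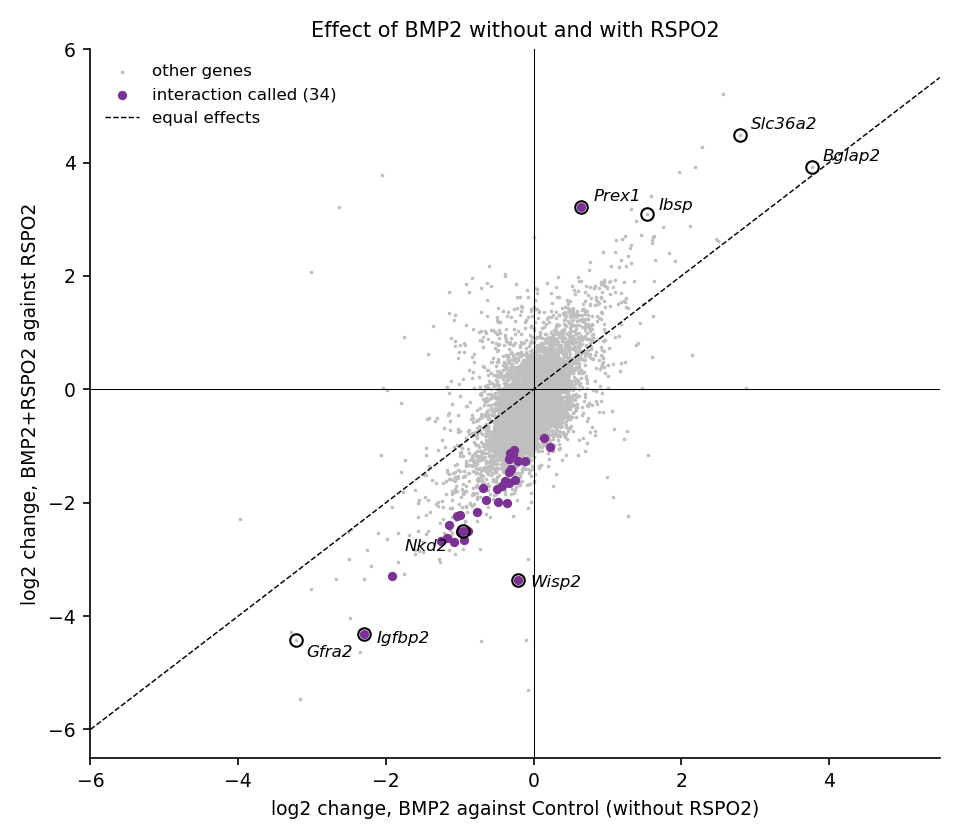
Log2 change of each gene tested with BMP2 against Control on the x axis and with BMP2+RSPO2 against RSPO2 on the y axis, with the 34 genes called for the interaction in purple, a dashed line where the effects are equal and 8 genes circled. The 2 axes share no library, and 33 of the 34 purple points lie below the dashed line.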

How the data were processed

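RNA of 12 cultures was sequenced from stranded poly(A) libraries. The authors deposited 1 table of FPKM for 39032 genes, and the submitters' processing notes name cutadapt 1.10, FastQC 0.10.1, HISAT2 2.0, StringTie 1.3.4 and edgeR without roles. They name GRCm38 and mm10, whereas the gene identifiers are of a C57BL/6NJ annotation, so no coordinates were taken for them. The p and q columns of the table state no comparison and were not used. Depth is unknown: the FPKM values showed no steps of whole reads.

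Groups followed the sample labels. Genes at 1 FPKM or more in at least 3 of 12 libraries were tested (11548) on log2(FPKM + 1) with limma 3.58.1 in R 4.3.3, fitting the 4 arms together, with moderated variance, a trend, 8 residual and 2.5 prior degrees of freedom, two-sided tests and Benjamini-Hochberg adjustment over all genes tested. The script was tested on simulated data. Alternatives were replicates 2 and 3 only, each library left out, a replicate block, another pseudocount, other filters, 2 other scalings, the 6 libraries alone and no trend.

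Genes are named by rule: the 4 markers, the 12 largest rises and 12 largest falls, up to 4 called genes per list by p and the first 2 of each list, the 6 most abundant called genes and up to 6 interaction genes. The largest rises and falls were taken among called genes with a symbol whose arms did not overlap. Symbols of predicted genes and clones and those ending in Rik were left out there. Other list members are given as examples and were chosen after their values were seen. The comparison, its members and the 32 gene lists were chosen with earlier results of these data known. Values of 2 listed genes are not reported here.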

Additional observations from a re-analysis of the deposited data

Results flagged for a closer look

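In 13 of the genes described or named by rule the effect of BMP2 differed between cultures with and without RSPO2 by the limma test of the interaction, and each value is the log2 effect with RSPO2 minus that without. Among growth factor and Wnt genes the interaction was -2.02 for Igfbp2, -3.16 for Wisp2, -1.53 for Nkd2 and -1.42 for Sfrp2. Contractile and matrix genes gave -1.22 for Acta2, -1.49 for Myl9, -1.51 for Fbln5 and -1.61 for Col3a1. The hedgehog co-receptor gene Gas1 gave -1.12, Rgs10, a regulator of G protein signalling, -1.31, the lectin gene Clec2d -1.71 and 1700027J19Rik -1.4. Prex1 gave 2.57, the one value above 0. The median interaction of all genes was -0.21. All 13 were called in the interaction fit of replicates 2 and 3 as well, which are part of the same libraries. None was called in any fit without Control replicate 2 or 3 or BMP2 replicate 2 or 3. The calls also depended on the scaling, as 10 of all 34 interaction calls were kept at a common distribution and 4 with median-of-ratios scaling. Of the 13, only Prex1, Myl9 and Rgs10 were kept with median-of-ratios scaling.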

How the results depend on the processing

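No named gene that was called changed direction under any alternative run, 6 that were not called changed sign under at least 1 (Asns, Fgf7, Mki67, Notch2, Tgfb2 and Top2a), and 109 of the 126 named genes that were called kept the call in all 12 fits that left out 1 library. Genes were named largely by a small p or a large change, so this share does not describe the calls over all genes. For BMP2+RSPO2 against RSPO2 the 3015 calls (499 higher, 2516 lower) became 1825 (876 and 949) when the libraries were brought to a common distribution, 1849 (893 and 956) with median-of-ratios scaling and 1237 (261 and 976) from the 6 libraries alone, and 935 were higher from replicates 2 and 3. Leaving out 1 library gave 1847 to 3058 calls, 346 to 683 higher and 1484 to 2501 lower. For BMP2 against Control the 175 calls became 963 (433 and 530) from replicates 2 and 3, and 65 to 403 (18 to 149 higher, 45 to 254 lower) with 1 library left out. The 34 interaction calls became 1109 (291 and 818) from replicates 2 and 3, 12 (3 and 9) at a common distribution and 4 (3 lower) with median-of-ratios scaling, 2 were higher with a filter at 5 FPKM, and 0 to 187 (0 to 41 higher, 0 to 146 lower) were called with 1 library left out. The cause of these shifts was not tested. The deviations of same-numbered replicates correlated at 0.161, 0.352 and -0.124 between RSPO2 and BMP2+RSPO2, where 3 of 6 libraries correlated best with their own number, at 0.479, 0.246 and 0.0789 between Control and BMP2, and at over 0.1 in 16 of the 18 such pairs of the 4 arms. As 1 pair of each comparison was not over 0.1, the numbers were not taken as pairs. Replicate 1 of the arms did deviate alike, with correlations of 0.161 to 0.631 between arms. This shared deviation stays in the spread of the main fit. With a replicate block 4159 genes were called (672 and 3487), 329 (136 and 193) for BMP2 against Control and 91 (13 and 78) for the interaction. Values near 1 FPKM are compressed by the pseudocount, and with depth unknown no limit of detection can be given.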
